A study of Mus musculus with 663 samples.

Results

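The interstitial progenitor cells described here were 98 of 216 single cells taken from XX mouse gonads at the embryonic stages E12.5 and E13.5, named by days after conception, out of 662 cells captured between E10.5 and postnatal day 6 in the whole series. They were chosen by their own expression. For each cell, the mean log2(RPKM + 1) of 5 supporting-lineage genes (Foxl2, Fst, Kitl, Runx1 and Irx3) was subtracted from the mean of 5 interstitial genes (Nr2f2, Pdgfra, Dcn, Col1a1 and Tcf21), and cells with a difference of at least 1 were kept. RPKM is reads per kilobase of transcript and per 1e6 reads. The rule was applied to 2 captures at each stage, a capture being 1 microfluidic chip run. It kept 27 of 53 cells in the first E12.5 capture, 26 of 57 in the third E12.5 capture, 23 of 53 in the first E13.5 capture and 22 of 53 in the second E13.5 capture. Values for the 4 captures are given in this order throughout. The cells that did not pass are called the other cells. They were split into 89 supporting-gated cells, in which the supporting genes exceeded the interstitial genes by at least 1, and 29 cells between the 2 limits.

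All cells came from mice of a mixed background that carried an eGFP reporter driven by Nr5a1, the gene for the steroidogenic transcription factor SF1, and none of the groups received a treatment. Female gonads were dissociated, live eGFP-positive cells were sorted by flow cytometry, and polyadenylated RNA of single cells was amplified on small C1 chips and sequenced. The reporter and the sort limit the sample to cells that made eGFP at the time or still held it, so gonadal cells without it were not sampled. The labels treat captures as independent but do not say whether each came from its own litter, so p-values below reflect how captures varied, and that variation may be technical.

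In the developing ovary, cells of the gonadal primordium follow 1 of a few courses. Supporting cells express Foxl2 and become the granulosa cells that surround oocytes, while interstitial or stromal progenitors stay outside the ovigerous cords, make fibrillar extracellular matrix and later contribute to the stroma and to the steroid-producing theca cells. The interstitial compartment is known for the orphan nuclear receptor Nr2f2 (COUP-TFII), for PDGF receptors, which relay growth signals to mesenchymal cells, and for the transcription factor Tcf21 (Pod1), a repressor of Nr5a1.

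The 10 genes of the rule are described first, without a test, because they chose the cells. The share of cells that passed was 50.9% in the first E12.5 capture (exact 95% binomial interval 36.8% to 64.9%), 45.6% in the third (32.4% to 59.3%), 43.4% in the first E13.5 capture (29.8% to 57.7%) and 41.5% in the second (28.1% to 55.9%). These intervals overlap and cover counting error only. Nr2f2 reached 1 RPKM in all 98 members, but it did so in 93.2% of the other cells as well. What separated the classes was its level, with means of 407, 323, 174 and 169 RPKM in the members and 88.5, 52.7, 35.8 and 23.3 RPKM in the other cells. Col1a1, a chain of type I collagen, reached 1 RPKM in 85 members and 26 other cells. Tcf21 did so in 65 members and 12 other cells, the small proteoglycan Dcn in 51 and 12, and the PDGF receptor Pdgfra in 49 and 13. On the supporting side, Kitl, the KIT ligand that oocytes sense, reached 1 RPKM in 42.9% of members and 95.8% of other cells, whereas Foxl2 did so in 6 members and 42 other cells. The members were therefore mixed in their gate genes. Of the 5 interstitial genes, 18 members held all, 38 held 4, 25 held 3, 14 held 2 and 3 held 1, and 35 of the 98 members held none of the 5 supporting genes. The 10 cells just inside the limit, with a difference of 1 to 1.5, had a median of 2.94 for the interstitial genes and 1.597 for the supporting genes. The 11 cells just outside it, with a difference of 0.5 to 1, had medians of 2.18 and 1.36.

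**Figure D1:**
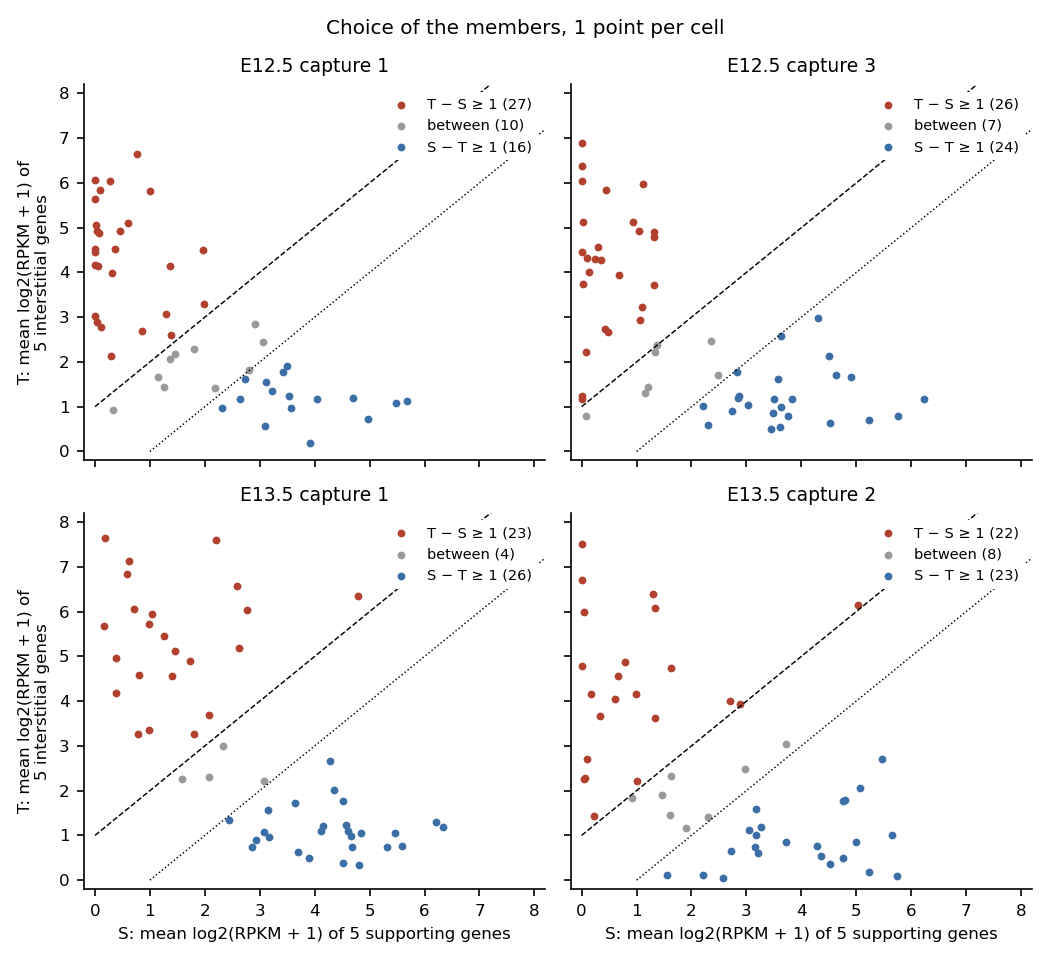
Each point is 1 cell of the 4 captures, with the mean log2(RPKM + 1) of the 5 supporting genes on the horizontal axis and of the 5 interstitial genes on the vertical axis. Cells on or above the dashed line are the 98 members, the dotted line bounds the 89 supporting-gated cells, and the cloud of points is continuous across the dashed line, with 10 cells just inside and 11 just outside.

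Depth was compared between the classes, though with 4 captures this test cannot reach a p under 0.05. The median number of detected genes, those with any nonzero value, was 5719, 5144, 7370 and 6800.5 in the members and 5806.5, 5795, 7246 and 7039 in the other cells. The exact two-sided sign-flip test over 4 captures gave p = 0.375, where the smallest possible p is 0.125. The reads per cell, estimated from the spacing of the lowest values, had medians of 2.53, 2.33, 3.22 and 2.97 M (M being 1e6) in the members and 2.92, 2.94, 2.90 and 2.86 M in the other cells, so the members were lower at E12.5 and higher at E13.5. The median summed RPKM per cell was lower in the members in 4 of 4 captures, 399518 to 412727 against 413897 to 435081. More genes were detected in the E13.5 captures than in the E12.5 captures in both classes. The third E12.5 capture came from another sequencing series than the other 3 captures of the rule. The second E12.5 capture was not in the rule. Of the 216 cells, 6 had fewer than 3000 detected genes and 4 held a Y-linked transcript. Leaving those cells out is covered with the processing alternatives.

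The label was set beside markers that the rule did not use. Their lists were chosen with earlier results of these data known. Markers whose levels follow the gate genes from cell to cell were bound to differ. Summed over 20 other interstitial markers, the members averaged 694 to 928 RPKM per capture and the other cells 121.4 to 178. Summed over 18 supporting markers, the members averaged 131.8 to 236 RPKM and the other cells 719 to 1758. The single markers of endothelium, leukocytes and germ cells named next were found in few or no members. Pecam1, a junction protein of endothelium, and Ptprc, the pan-leukocyte phosphatase CD45, reached 1 RPKM in 0 of 98 members, which allows a share of up to 3.06% of cells by counting error alone. Cdh5, the endothelial cadherin, did so in 1 member, as did the germ cell genes Ddx4 and Dazl and the mesonephric gene Pax2. Summed endothelial markers averaged 4.52 to 50.8 RPKM in the members and 3.79 to 10.8 RPKM in the other cells. Summed immune markers averaged 4.02 to 5.94 and 0.154 to 2.83 RPKM. Both sums were higher in the members in 4 of 4 captures. In the fit described below, 4 of 5 endothelial genes tested had a positive difference, with a median of 0.83, and none was called. Which genes carried the endothelial sum is not given here. Summed over 13 steroidogenic markers, Nr5a1 included, the members averaged 13.04 to 82.1 RPKM and the other cells 132.7 to 182 RPKM. Of these, the enzymes Cyp17a1 and Cyp11a1 reached 1 RPKM in 0 and 1 of 98 members, Hsd3b1 in 3, Star, which brings cholesterol into mitochondria, in 7, Fdxr in 12, Fdx1 in 21 and the lipoprotein receptor Scarb1 in 22. Perivascular markers reached higher sums. Summed over 10 genes, they averaged 72.2 to 265 RPKM in the members and 14.2 to 37.6 RPKM in the other cells. Rgs5, a pericyte regulator of G-protein signalling, averaged 140, 33.5, 6.62 and 13.47 RPKM in the members and reached 1 RPKM in 25 of them against 3 other cells. Acta2, smooth muscle actin, averaged 19.3, 1.51, 137.1 and 124.4 RPKM and was found in 23 members and 9 other cells. Neither gene passed the test described below (adjusted p = 0.0761 for Rgs5 and 0.227 for Acta2, limma), and none of the 8 perivascular genes tested did. The part of these genes in the differences below was not tested. Rgs5, Acta2, Col3a1, Mki67, Upk3b and Krt19 were chosen for mention after their values were seen.

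To ask what else set the members apart, the mean RPKM of each gene over the members of a capture was compared with its mean over the other cells of the same capture. log2(mean RPKM + 1) was fitted with limma with the capture as a block, over 13841 genes that reached 1 RPKM in at least 2 of the 4 captures, with the 10 gate genes left out. A gene was called at a Benjamini-Hochberg adjusted two-sided p under 0.05. Fold changes are differences on this log2 scale, which understates the change of low genes. The 2 classes were cut from the same cells by expression, so the p-values take that split as given, and genes whose levels follow the gate genes from cell to cell were bound to differ. In the members, 298 genes were called, 1.0% of those tested being higher and 1.15% lower. All 298 had the same sign in all 4 captures, as calls from a test on these same 4 differences largely must. The median difference over all genes tested was -0.03, and 6673 of the 13841 genes had a positive difference. Each capture carried weight in this count: 2.15% of tested genes were called with all 4 captures, and 0.367%, 0.714%, 0.503% and 1.03% when the captures were left out in turn. Of the 298 genes, 37 were called in all 4 of these fits and 49.7% in none, so single genes below are given with the number of fits, out of 4, in which they were called.

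The genes with the largest positive differences are described one by one, with means taken over all cells of a class in a capture. Crabp1, a cytoplasmic carrier of retinoic acid (chromosome 9, 54764748 to 54773110, GRCm38), averaged 60.1, 37.8, 52.8 and 10.7 RPKM in the members and at most 0.242 RPKM in the other cells. It came from a minority, reaching 1 RPKM in 22 of 98 members and 1 of the other cells, and differed by 5.03 ± 0.568 (SE, 4 captures; adjusted p = 0.00639, limma; 4 fits). Col1a2, the partner chain of Col1a1 in type I collagen (chromosome 6, 4504814 to 4541544), was by contrast broad. It averaged 56.3, 53.3, 88.7 and 54.7 RPKM in the members and 0.212, 0.636, 5.10 and 2.97 RPKM in the other cells, and it reached 1 RPKM in 82 members and 22 other cells. The difference was 4.58 ± 0.454 (adjusted p = 0.00632, limma; 4 fits). Fn1, the cell-adhesive glycoprotein fibronectin, averaged 23.1, 24.5, 24.7 and 35.1 RPKM against 0.351, 0.550, 0.408 and 0.897 RPKM, a difference of 4.16 ± 0.469 (adjusted p = 0.00639, limma; 4 fits), and was found in 58 members and 9 other cells. Pdgfrb, the second PDGF receptor and a marker of mesenchymal and perivascular cells, averaged 29.2, 26.8, 28.6 and 49.95 RPKM against 0.210, 0.263, 0.612 and 0.740 RPKM. Its difference was 4.54 ± 0.467 (adjusted p = 0.00632, limma; 4 fits), and it reached 1 RPKM in 45 members and 15 other cells. For these 4 genes the highest capture of the other cells lay below the lowest capture of the members. Genes picked for large differences are apt to show such a gap, and its share among all genes tested is not given here.

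Several of the other large differences rested on few cells. Lum, the small leucine-rich proteoglycan lumican, averaged 56.4, 6.77, 24.5 and 102.4 RPKM from 15 members (4.95 ± 0.667, adjusted p = 0.0129, limma; 2 fits). Il33, a nuclear cytokine, averaged 60.6, 18.4, 45.4 and 10.9 RPKM from 21 members. Both were found in 2 other cells. Dnm3os, a noncoding RNA that hosts microRNAs, was found in 37 members and 2 other cells, and Islr, a membrane protein used as a mark of stromal progenitors, in 34 and 6. Smoc2, a secreted calcium-binding matricellular protein, was found in 20 and 7, and Mfap4, a microfibril-associated glycoprotein, in 46 and 10. Kif23, a kinesin of the cytokinetic midzone, was found in 22 and 5. The differences of these 5 genes were between 4.19 and 4.68. Mfap4 was called in 2 of the 4 fits and the other 4 genes in all of them.

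**Figure D2:**
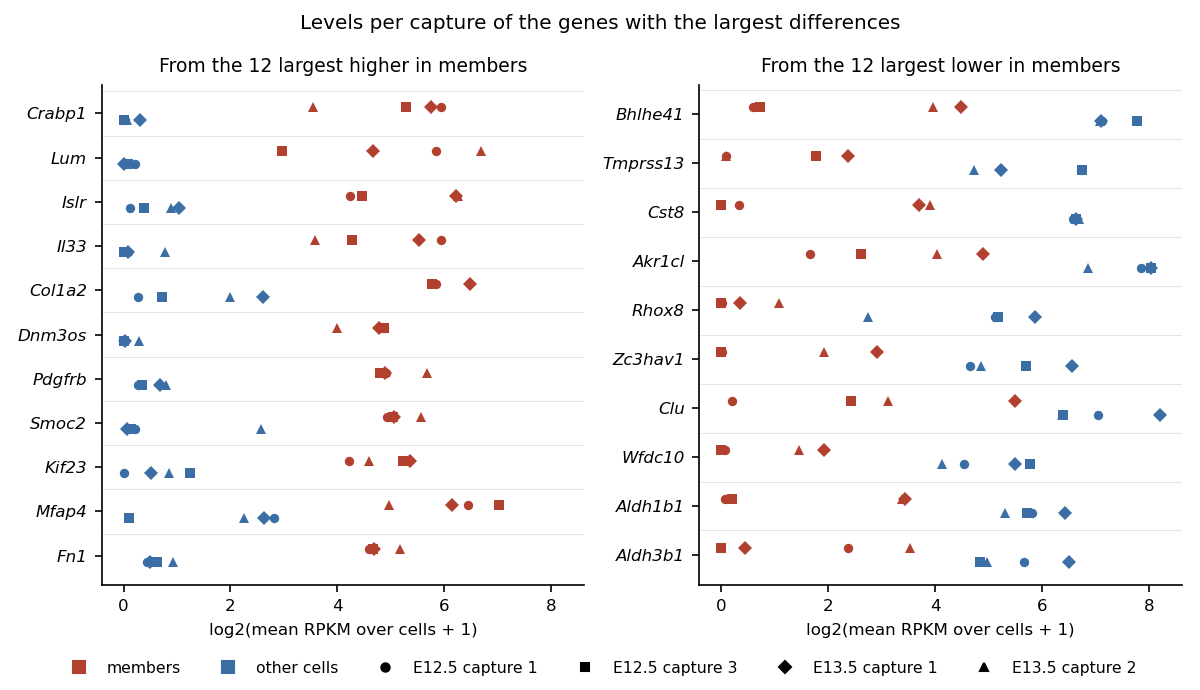
Genes named in the text from among the 12 largest positive (left) and the 12 largest negative (right) differences between members (red) and other cells (blue), as log2(mean RPKM + 1) on the horizontal axis with 1 symbol per capture. For every gene shown, the 4 member values and the 4 values of the other cells do not overlap. Picking genes by large called differences favours such a gap, and its share among all genes tested is not given here.

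The extracellular matrix genes were then taken by role, from lists put together for this tissue. Of 15 tested collagens other than the gate gene Col1a1, 2 were higher, Col1a2 and Col6a3, none was lower, and the median difference was 1.41. Col6a3, a chain of beaded-filament collagen VI, averaged 11.96, 8.08, 18.1 and 8.47 RPKM in the members and at most 0.252 RPKM in the other cells (3.49 ± 0.552, adjusted p = 0.0203, limma; 0 fits). Leaving out any 1 capture left 1 call. Col3a1, the type III fibrillar chain, was not among the calls. It averaged 59.5, 58.7, 77.5 and 47.5 RPKM in the members and 5.42, 1.28, 47.5 and 20.2 RPKM in the other cells (2.46 ± 0.617, adjusted p = 0.0821, limma), so the other cells of the first E13.5 capture reached about the level of the lowest member capture. Of 30 matrix glycoproteins, 8 were higher and none lower, with a median of 1.16: Fn1, Ecm1, Mfap2, Mfap4, Nid2, Sparc, Postn and Sparcl1. Without the first E12.5 or the first E13.5 capture that count was 3 or 2. Ecm1, a secreted matrix glycoprotein, averaged 100, 163.1, 29.4 and 100.6 RPKM against 7.93, 3.40, 4.39 and 5.77 RPKM (3.78 ± 0.452, adjusted p = 0.00774, limma; 4 fits). Mfap2, a small component of fibrillin microfibrils, was found in 96.9% of members and 82.2% of other cells and differed in level by 1.48 ± 0.193 (adjusted p = 0.0109, limma; 2 fits).

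Of 15 proteoglycans, 3 were higher (Lum, Gpc3 and Bgn) and none lower, with a median of 1.09, but without the first E12.5 capture none was called. Gpc3, a glypican that binds growth factors at the cell surface, averaged 824, 780, 276 and 461 RPKM in the members and 262, 130, 142.1 and 111.6 RPKM in the other cells. It reached 1 RPKM in all 98 members and in 90.7% of the other cells, so this too was a difference in level (1.80 ± 0.244, adjusted p = 0.0129, limma; 3 fits). Bgn, the collagen-binding proteoglycan biglycan, averaged 53.9, 34.9, 93.8 and 59.1 RPKM against 5.64, 10.01, 14.7 and 10.8 RPKM (2.42 ± 0.343, adjusted p = 0.0149, limma; 2 fits). Of 17 genes of collagen folding and cross-linking, only Leprel1, a collagen prolyl hydroxylase found in 15 members and 5 other cells, was called, and its class means overlapped across captures. Of 14 remodelling genes, 2 were higher and none lower. Mmp2, the secreted protease gelatinase A, averaged 96.7, 160.6, 176 and 140 RPKM in the members and 7.46, 10.7, 14.1 and 30.2 RPKM in the other cells (3.26 ± 0.328, adjusted p = 0.00632, limma; 4 fits). Timp2, which inhibits it and helps to activate it, averaged 58.9, 69.5, 77.8 and 38.1 RPKM against 9.91, 11.47, 16.8 and 11.7 RPKM (2.18 ± 0.313, adjusted p = 0.0150, limma; 1 fit).

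**Figure D3:**
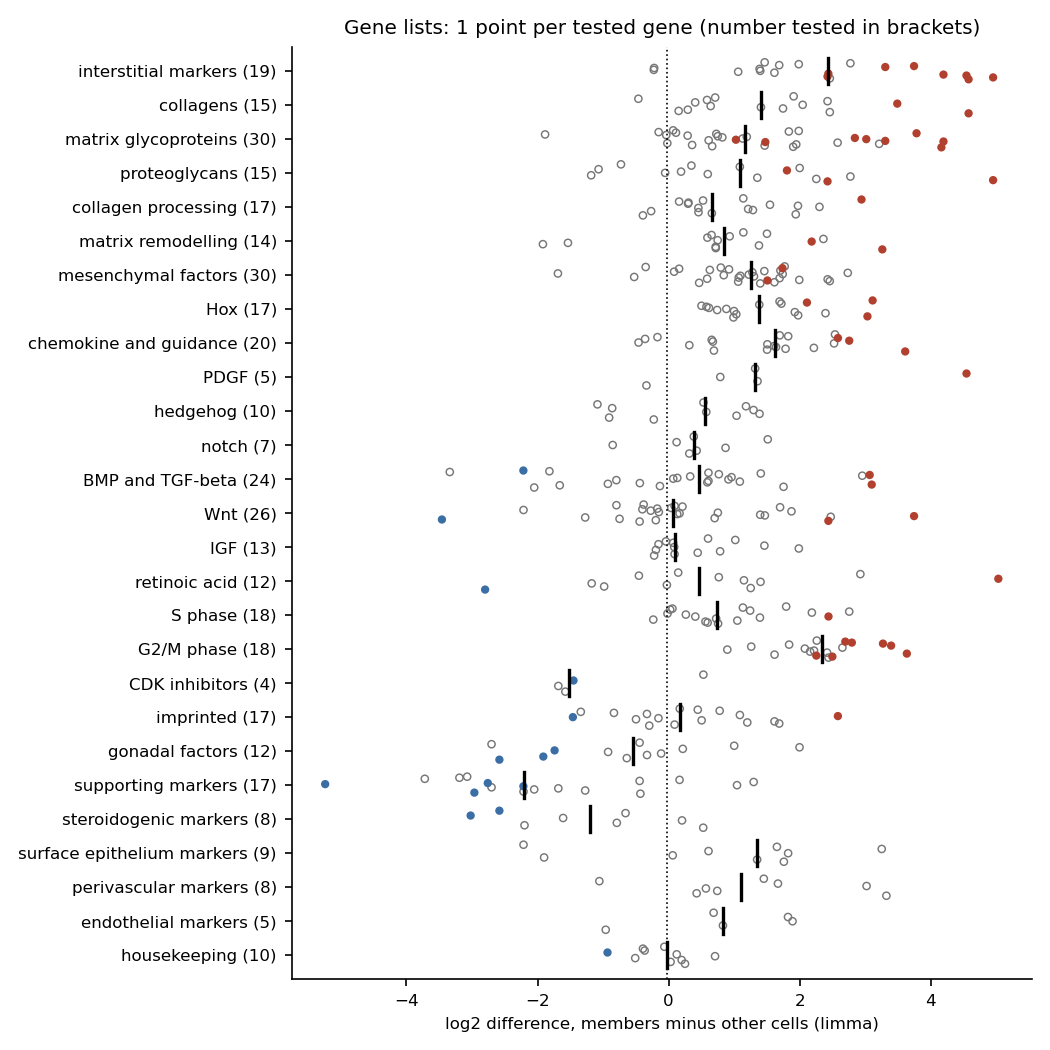
Log2 difference between members and other cells on the horizontal axis, with 1 point for each tested gene of a list and 1 row per list. Filled points passed the test, the black bar is the list's median and the dotted line is the median of all genes tested (-0.03). The G2/M and Hox lists lie wholly to the right of 0, with medians of 2.34 and 1.38. Of all 13841 genes tested, 6673 had a positive difference.

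Among signalling genes, the calls were single ligands, receptors and antagonists rather than whole pathways. Of 5 PDGF genes, Pdgfrb was called. Of 26 Wnt genes, 2 were higher and 1 was lower, with a median of 0.07, close to that of all genes. Sfrp1, a secreted antagonist that binds Wnt ligands, was among the most abundant member genes of this kind, at 140, 146.6, 143.2 and 89.2 RPKM against 3.15, 14.6, 7.36 and 14.5 RPKM, and was found in 81 members and 32 other cells (3.74 ± 0.419, adjusted p = 0.00639, limma; 4 fits). Wnt5a, a ligand known for signalling without beta-catenin, averaged 34.1, 31.9, 62.95 and 23.3 RPKM against 9.11, 2.35, 11.2 and 4.06 RPKM (2.44 ± 0.396, adjusted p = 0.0207, limma; 0 fits). Wnt6, another ligand of the family, went the other way, at 7.32, 0.643, 4.002 and 4.17 RPKM in the members and 39.05, 88.1, 55.1 and 24.8 RPKM in the other cells (-3.46 ± 0.598, adjusted p = 0.0270, limma; 1 fit). Wnt4, the ovary-promoting ligand, was not called (20.7, 29.1, 12.46 and 9.05 RPKM against 21.9, 19.9, 17.01 and 34.05 RPKM, difference -0.44 ± 0.433, adjusted p = 0.678, limma).

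Of 24 BMP and TGF-beta genes, 2 were higher and 1 lower. Tgfb3, a TGF-beta ligand, averaged 16.49, 42.6, 17.3 and 23.98 RPKM in the members and at most 5.27 RPKM in the other cells (3.07 ± 0.537, adjusted p = 0.0287, limma; 0 fits). Bmper, a secreted modulator of BMPs, was found in 13 members and 4 other cells (3.10 ± 0.590, adjusted p = 0.0368, limma; 0 fits). Amhr2, the receptor of anti-Müllerian hormone, was lower, at 29.6, 38.2, 37.5 and 69.2 RPKM against 270, 236, 171 and 135.4 RPKM (-2.22 ± 0.336, adjusted p = 0.0170, limma; 1 fit). It still reached 1 RPKM in 39 members.

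Of 10 hedgehog genes tested, 0 were called (limma), with a median of 0.55. When log2 values were averaged over cells, 2 were called higher, but 9.67% of all genes tested were called in that setting. Their summed level was higher in the members in 4 of 4 captures, 92.2 to 129.9 RPKM against 47.4 to 111.7 RPKM (exact two-sided sign-flip p = 0.125, the smallest possible). Gli1, a transcriptional target of the pathway that marks interstitial progenitors in later gonads, reached 1 RPKM in 9 members and 1 other cell. Ptch1, the hedgehog receptor and itself a target, was found in 30 members and 37 other cells, with a difference of -0.23 (adjusted p = 0.890, limma). Of 7 Notch genes and 13 IGF genes none was called. With log2 values averaged over cells, 1 Notch gene was called lower and 2 IGF genes higher. Of 12 retinoic acid genes, Crabp1 was higher and Aldh1a1, a retinaldehyde dehydrogenase, was lower, though its class means overlapped across captures. Aldh1a2, the related enzyme that makes retinoic acid in embryonic mesenchyme, averaged 96.3, 134.6, 178 and 123.6 RPKM in the members and did not pass (1.25, adjusted p = 0.0795, limma). Of 20 chemokine and axon-guidance genes, 3 were higher and none lower, with a median of 1.62, but without the first E12.5, the third E12.5 or the first E13.5 capture none was called. Efna5, a membrane-anchored ephrin ligand, averaged 232, 112.8, 86.2 and 127.9 RPKM in the members and 10.46, 14.4, 21.1 and 58.1 RPKM in the other cells (2.58 ± 0.464, adjusted p = 0.0298, limma; 1 fit). Its receptor class was represented by Epha3, found in 15 members and 3 other cells. Cxcl12, the chemokine that guides migrating germ cells, averaged 56.8, 28.6, 8.85 and 4.72 RPKM in the members and at most 1.70 RPKM in the other cells (3.61 ± 0.753, adjusted p = 0.0487, limma; 1 fit). Both E12.5 captures lay above both E13.5 captures.

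Transcription factors of the gonadal primordium were lower or not called. Nr5a1, whose promoter drives the reporter (chromosome 2, 38692656 to 38714542), averaged 5.65, 6.87, 22.1 and 21.6 RPKM in the members and 96.96, 86.2, 50.3 and 79.1 RPKM in the other cells, a difference of -2.58 ± 0.471 (adjusted p = 0.0313, limma; 1 fit). It reached 1 RPKM in 55.1% of members and 94.1% of other cells. The eGFP transcript itself averaged 527, 722, 736 and 992 RPKM in the members and 6497, 6626, 2321 and 1988 RPKM in the other cells (-2.37 ± 0.371, adjusted p = 0.0193, limma; 1 fit). It reached 1 RPKM in 87.8% of members, so more members held the reporter transcript than held Nr5a1. Gata4, a zinc-finger factor needed for gonad formation, averaged 7.19, 33.7, 33.1 and 20.3 RPKM in the members and 84.5, 75.01, 74.8 and 82.8 RPKM in the other cells (-1.91 ± 0.401, adjusted p = 0.0490, limma; 0 fits), and Emx2, a homeobox factor of the coelomic epithelium, differed by -1.74 ± 0.356 (adjusted p = 0.0457, limma; 0 fits). These 3 factors were the calls among 12 tested, all lower, where 1.15% of all genes tested were called lower. Without the first or the third E12.5 capture none of the 12 was called. Wt1 averaged 148.4, 142.5, 98.4 and 158.9 RPKM in the members and 277, 213, 163.4 and 204 RPKM in the other cells, and did not pass (-0.64 ± 0.179, adjusted p = 0.118, limma). Gata6 (-0.33), Lhx9 (-0.92) and Zfpm2 (-0.11) did not pass either.

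Of 30 tested mesenchymal transcription factors, 27 had a positive difference, 2 were called higher and none lower, and the median was 1.25. Nfib, a nuclear factor I protein, averaged 101.2, 105.4, 82.3 and 76.2 RPKM against 30.4, 21.7, 21.8 and 33.95 RPKM (1.74 ± 0.275, adjusted p = 0.0203, limma; 1 fit). Meis1, a homeobox cofactor of Hox proteins, averaged 134.8, 101.2, 63.95 and 81.8 RPKM against 29.8, 47.4, 19.9 and 35.7 RPKM (1.51 ± 0.274, adjusted p = 0.0312, limma; 0 fits). All 17 tested Hox genes, which set position along the body axis, had a positive difference, and 3 were called: Hoxd10, Hoxa5 and Hoxd8. Of all 13841 genes tested, 6673 had a positive difference. Hoxa5 averaged 18.5, 3.92, 9.99 and 6.29 RPKM over all members, reached 1 RPKM in 28 of them and was found in 1 other cell (3.03 ± 0.558, adjusted p = 0.0323, limma; 0 fits). Hoxd8 averaged 36, 31.97, 19.9 and 47.4 RPKM against 9.49, 3.07, 6.59 and 9.98 RPKM (2.11 ± 0.399, adjusted p = 0.0363, limma; 0 fits). For the mesenchymal factors and for the Hox genes alike, 1 call was left without the second E13.5 capture and none without any other capture.

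The genes with the largest negative differences are given next. Akr1cl, an aldo-keto reductase, averaged 2.16, 5.12, 28.7 and 15.4 RPKM against 230, 262, 261 and 114.8 RPKM (-4.39 ± 0.545, adjusted p = 0.00889, limma; 4 fits). Members of the first E13.5 capture had the highest value of the 4 for Akr1cl. Bhlhe41, a circadian transcriptional repressor, averaged 0.510 and 0.660 RPKM in the E12.5 members and 21.3 and 14.6 RPKM in the E13.5 members, against 135.3 to 219 RPKM in the other cells (-4.83 ± 0.722, adjusted p = 0.0169, limma; 3 fits). Also among the 12 largest were Tmprss13, Cst8, Rhox8, Zc3hav1, Clu, Wfdc10, Aldh1b1 and Aldh3b1, with differences from -4.78 to -3.91.

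By list, 4 of 17 supporting markers were lower and none higher, Amhr2, Gatm and Msx1 among them, with a median of -2.21. That count was 0, 1, 2 and 4 when the captures were left out in turn. Of 8 steroidogenic genes, Fdxr, the reductase that feeds electrons to mitochondrial P450 enzymes, and Nr5a1 were lower, in 0 and 1 of the 4 fits. On the other side, 8 of 19 further interstitial markers were higher and none lower, with a median of 2.42: Col1a2, Pdgfrb, Sfrp1, Lum, Bgn, Mfap4, Wnt5a and Postn. Without the first E12.5 or the first E13.5 capture that count was 3. None of 9 surface-epithelium, 5 endothelial or 8 perivascular genes tested was called. Without the third E12.5 capture, 1 perivascular gene was called higher. With log2 values averaged over cells, 9.67% of all genes tested were called. In that setting 3 surface-epithelium genes were higher and 2 lower, 2 perivascular genes were higher, and no endothelial gene was called. Of 10 housekeeping genes, B2m, the light chain of MHC class I, was lower (-0.95 ± 0.198, adjusted p = 0.0488, limma; 0 fits).

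Cell-cycle genes formed the other large group. The interstitial-gated cells contained more cells with mitotic transcripts than the other cells of the same chips. All 18 tested G2/M genes had a positive difference, against 6673 of all 13841 genes tested. Of the 18, 7 were called higher: Tpx2, Ccnb2, Top2a, Cenpe, Plk1, Nusap1 and Cdk1. Their list median was 2.34, and the count of calls was 0, 2, 1 and 3 when the captures were left out in turn. Ccnb2, a mitotic cyclin, averaged 70.1, 26.01, 95.3 and 59.7 RPKM in the members and 7.93, 0.00539, 21.6 and 1.33 RPKM in the other cells (3.63 ± 0.515, adjusted p = 0.0150, limma; 3 fits). Tpx2, a spindle assembly factor, averaged 24.03, 15.2, 33.7 and 37.6 RPKM against 1.96, 0.00469, 2.79 and 4.56 RPKM (3.27 ± 0.455, adjusted p = 0.0140, limma; 2 fits). Mki67, the proliferation antigen Ki-67, did not pass (2.44 ± 0.582, adjusted p = 0.0717, limma) although it was found in 31 members and 8 other cells. Counted per cell, 24 of 98 members and 2 of the other cells held at least 9 of the 18 G2/M genes. By capture this was 18.5%, 15.4%, 34.8% and 31.8% of members and 0%, 0%, 3.33% and 3.23% of other cells. The zeros allow shares of up to 11.54% and 9.68% by counting error. The exact two-sided sign-flip p over 4 captures was 0.125, the smallest this design allows, with the members higher in 4 of 4.

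S-phase genes were less separated. Of 18, Rrm2, a subunit of ribonucleotide reductase, was called higher (2.43 ± 0.434, adjusted p = 0.0293, limma; 0 fits), and the median was 0.74. At least 9 of the 18 S-phase genes were held by 48.1%, 38.5%, 65.2% and 77.3% of members and by 34.6%, 29.03%, 43.3% and 58.1% of other cells (sign-flip p = 0.125). Both shares were higher at E13.5 than at E12.5, where fewer genes were detected per cell, and cells were not thinned to a common depth because read counts are not in the table. Cdkn1c, the imprinted inhibitor of cyclin-dependent kinases p57 (chromosome 7, 143458339 to 143461050), was lower. It averaged 239, 255, 216 and 270 RPKM in the members and 739, 833, 595 and 564 RPKM in the other cells (-1.46 ± 0.153, adjusted p = 0.00632, limma; 4 fits). Most cells of both classes held it, 93.9% of members and 98.3% of other cells. Plagl1, an imprinted zinc-finger gene, was higher in the members, at 39.1, 32.3, 36.5 and 65.5 RPKM against 6.01, 7.004, 7.01 and 4.77 RPKM (2.58 ± 0.390, adjusted p = 0.0169, limma; 1 fit). These were the only 2 calls among 17 imprinted genes tested.

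**Figure D4:**
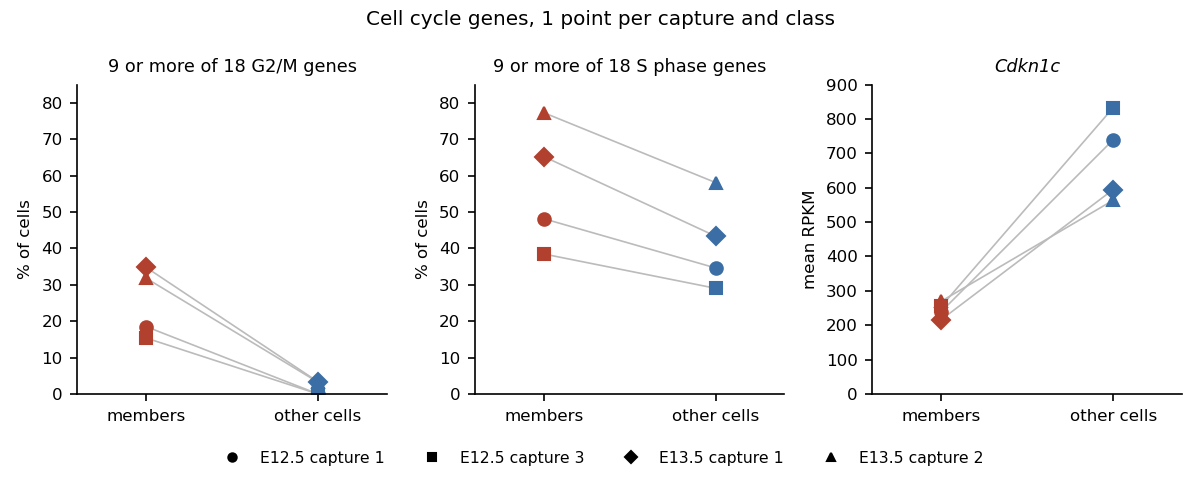
Percent of cells with at least 9 of 18 G2/M genes (left) and at least 9 of 18 S-phase genes (middle), and mean Cdkn1c level in RPKM (right), for members and other cells, with a line joining the 2 classes of each capture. In all 4 captures both shares are higher and Cdkn1c is lower in the members.

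The other cells were not uniform, so the members were also compared with each of their 2 classes alone. Against the 89 supporting-gated cells, 85 genes were higher (0.614% of those tested) and 73 lower (0.527%), and 90.5% of these were also called, with the same sign, against all other cells. Leaving out the first or the third E12.5 capture left 1 and 4 calls, and leaving out the first or the second E13.5 capture left 59 and 31. Against the 29 cells between the limits, 26 genes were higher (0.188%) and 9 lower (0.0650%). This comparison had 4 to 10 cells per capture on 1 side, and leaving out 1 capture gave 0, 0, 0 and 6 calls. Its median over all genes was 0.32, so differences are read against that value. Crabp1 (5.02 and 5.12), Col1a2 (4.89 and 4.15), Pdgfrb (4.54 and 4.59), Fn1 (4.24 and 4.02) and Col6a3 (3.57 and 3.33) were called higher in both, against supporting-gated and in-between cells in that order. Cdkn1c was lower in both (-1.47, adjusted p = 0.0115, and -1.36, adjusted p = 0.0452, limma). Other genes were called against the supporting-gated cells only. Sfrp1 differed by 5.47 from the supporting-gated cells and by 2.14 from the in-between cells (adjusted p = 0.00513 and 0.181, limma), and Akr1cl by -4.62 and -2.83 (adjusted p = 0.0105 and 0.103, limma). Whether the 2 differences of a gene differ from each other was not tested. Of the matrix glycoproteins, 7 were called higher against supporting-gated cells and 1 against in-between cells. Of the G2/M genes, 1 was called in each comparison.

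Whether the differences changed from E12.5 to E13.5 was asked with an interaction of class and stage. No gene passed the adjusted threshold (0 of 13841, 0%, limma), 981 had an unadjusted p under 0.05, and the lowest adjusted p was 0.0759. That was Ifitm1, an interferon-induced membrane protein, at 61.9, 65.1, 286 and 230 RPKM in the members and 1148, 1258, 596 and 623 RPKM in the other cells. It lay below the other cells in all 4 captures, and the gap was 2.98 ± 0.234 smaller on the log2 scale at E13.5. For eGFP the gap was 2.08 ± 0.236 smaller at E13.5 (adjusted p = 0.402, limma). The Wnt antagonist Sfrp2 averaged 103.2 and 89.6 RPKM in the E12.5 members and 11.8 and 5.52 RPKM in the E13.5 members, against 7.12, 4.86, 16.6 and 15.1 RPKM in the other cells (-4.70 ± 0.713, adjusted p = 0.701, limma). Members thus lay above the other cells at E12.5 and below them at E13.5, in all 4 captures, but the change did not pass the test. The same test gave 69 calls when the first E12.5 capture was left out, and 52 higher and 49 lower when the third was, with 14 in common, and 0 without either E13.5 capture. With 1 capture left at E12.5, that lone capture is assumed to vary as the remaining ones do.

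Between the members of the 2 stages alone, no gene passed either (0 of 13841, 0%, limma; 936 at an unadjusted p under 0.05, lowest adjusted p 0.700), and leaving out a capture left the count at 0. Txnip, an inhibitor of thioredoxin that responds to glucose, averaged 8.89, 13.1, 99.6 and 94.9 RPKM in the members and 30.7, 33.4, 106.7 and 60.1 RPKM in the other cells. Its member difference between stages was 3.05 ± 0.352. Islr averaged 17.8 and 21.1 RPKM in the E12.5 members and 73.7 and 75.3 RPKM in the E13.5 members, a difference of 1.89 ± 0.302. Spry2, a feedback inhibitor of receptor tyrosine kinase signalling, averaged 41.2 and 26.6 RPKM in the E13.5 members, below both E12.5 captures (-1.81 ± 0.323). The ribosomal protein gene copy Rps3a3 was 2.29 ± 0.264 lower at E13.5, but the other cells moved alike, at 342, 491, 76.3 and 84.4 RPKM. Reads of such a copy may be shared with its parent gene.

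The members were a mixed class, and 1 split within them ran along surface-epithelium genes. It is described without a test, since its markers were picked after their values were seen. Upk3b, a uroplakin that marks the mesothelium covering the gonad, reached 1 RPKM in 33 of 98 members, which were 9, 8, 9 and 7 cells in the 4 captures, and in 15 other cells. Its mean level in the members, 18.1, 24.5, 18.3 and 21.1 RPKM, was not called against that in the other cells, 0, 2.17, 22.9 and 19.9 RPKM (adjusted p = 0.290, limma). The keratin Krt19 was found in 63.6% of the 33 members with Upk3b and 13.8% of the 65 without it. Krt7 was found in 54.5% and 9.23%, and Upk1b in 42.4% and 10.8%. Aldh1a2 was found in 81.8% and 46.2%, and Emx2 in 75.8% and 36.9%. Most mesenchymal genes looked at ran the other way or were found at like shares. The gate gene Dcn did not, at 57.6% of members with Upk3b and 49.2% of those without. Pdgfrb was found in 21.2% of members with Upk3b and 58.5% of those without, Pdgfra in 30.3% and 60%, Mfap4 in 30.3% and 55.4% and Tcf21 in 51.5% and 73.8%. Col1a2 was found in 81.8% and 84.6% and Sfrp1 in 84.8% and 81.5%, but their mean levels were lower with Upk3b, at 33.3 against 77.7 RPKM for Col1a2 and 81.4 against 156.2 RPKM for Sfrp1. For both genes this held in all 4 captures. Nr5a1 was found in 57.6% and 53.8%. Upk3b and Tcf21 were held together by 17 members, Upk3b alone by 16, Tcf21 alone by 48 and neither by 17. At least 3 of 5 surface-epithelium genes (Upk3b, Upk1b, Krt7, Krt19 and Lrrn4) were held by 23 of 98 members and 8 of the other cells. The label of interstitial progenitors therefore holds in part: Pdgfrb was found in 45.9% of members, while 33.7% carried the mesothelial marker Upk3b. Col1a2 was found in 83.7% of members, but it is the partner chain of the gate gene Col1a1. Its share did not separate members with Upk3b from those without, so it does not bear on the label. No doublet caller was run, and the part of doublets in cells that hold both kinds of gene was not tested.

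**Figure D5:**
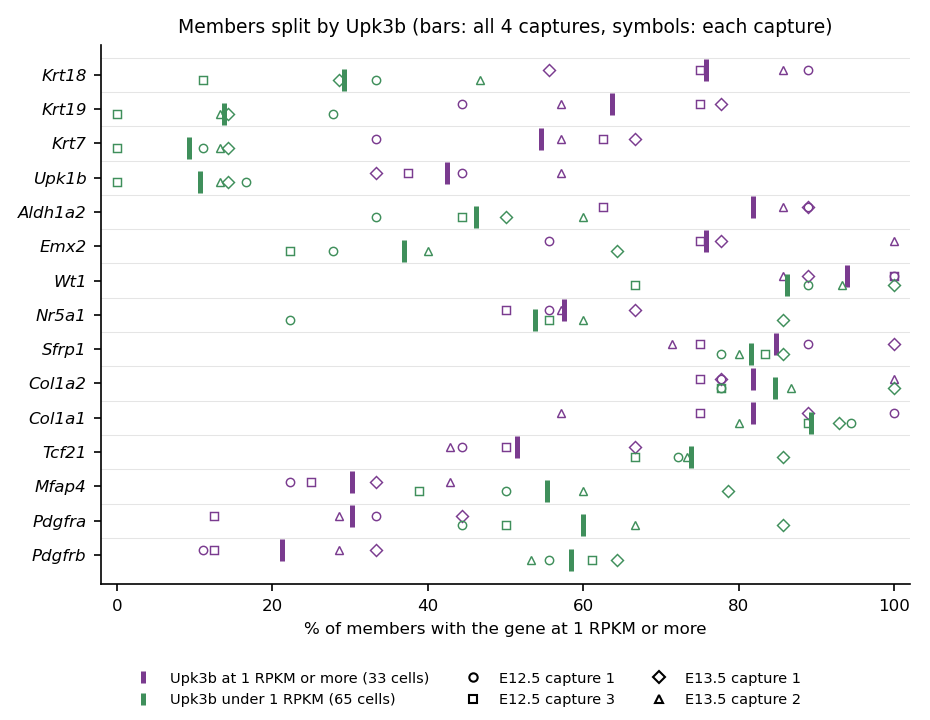
Percent of members holding each gene at or above 1 RPKM, for the 33 members with Upk3b and the 65 without it. Bars give the share over all 4 captures and symbols give each capture. Keratins, Upk1b, Aldh1a2 and Emx2 are more frequent with Upk3b, Pdgfrb, Pdgfra, Mfap4 and Tcf21 are more frequent without it, and Col1a2 and Sfrp1 are at similar shares. Dcn, found in 57.6% with Upk3b and 49.2% without, is not shown.

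The same limit was applied to the captures of the other stages, as a description only. It selects different cells at each stage, and the E16.5 and postnatal captures share a sequencing series with the third E12.5 capture but not with the other 3 captures. It kept 84.5% of cells at E10.5, 75.5% and 79.2% in the E11.5 captures, 60.4% in the E12.5 capture outside the rule (where 40 of 53 cells held a Y-linked transcript and the kept cells had a median of 0.122 M estimated reads), 30.9% and 50% at E16.5, and 47.3% and 60.6% at postnatal day 6. In the cells it kept, Col1a2 averaged 12.8 RPKM in the E10.5 capture, 53.2 and 34.8 in those of E11.5, 144.5 and 220.6 at E16.5, and 314 and 285 at postnatal day 6. Lum averaged 0.00749 RPKM in E10.5 cells, 18.4 and 10.3 in E11.5 cells, 328 and 286 at E16.5, and 332 and 511 at postnatal day 6. Both collagen and lumican were thus higher in every capture from E16.5 on than in any of the 4 captures described here. Crabp1 averaged 16.3 RPKM in E10.5 cells, 73.9 and 52.5 in the E11.5 captures, 33.5 and 70.1 at E16.5, and was listed at 0 in both postnatal captures. Cdkn1c averaged 235 RPKM in E10.5 cells, 276 and 347 in E11.5 cells, 312 and 155.1 at E16.5, and 48.4 and 31.8 at postnatal day 6, the lowest values of the series for gated cells. Top2a averaged 98.6 RPKM in E10.5 cells, 64.1 and 48.8 in E11.5 cells, 8.97 and 76.2 at E16.5, and 53.8 and 40.96 at postnatal day 6, so the 2 captures of E16.5 lay further apart than those of any other stage.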

How the data were processed

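Single-cell RNA of eGFP-positive XX gonad cells was amplified on C1 chips from polyadenylated RNA, per the labels' protocols. The authors deposited 1 table of genes by cells, whose values were normalized to RPKM before deposit as far as the values show, since the table names no unit. The build is GRCm38.p3 (mm10), per the submitters' processing notes. For the aligner, the counter, the annotation and the use of strand: not given in the sources used here. The repeat library of 1 cell was averaged with the first (r = 0.996), and 27 gene rows whose names had turned into dates were dropped, leaving 43320 genes. In the low values, 75.9% lay within 0.05 of a whole read, too few to recover counts.

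RPKM was averaged per gene over the cells of a class in each capture. log2(mean + 1) was fitted with limma 3.58.1 (trend, R 4.3.3), with the capture as a block and Benjamini-Hochberg adjustment. Genes needed 1 RPKM in 2 of 4 captures. Members and other cells of a capture came from the same chip, which is where the pairing comes from. Deviations of the 2 classes correlated at 0.040, 0.034, 0.077 and 0.022 within a capture, and at most at 0.023 between captures. Named genes were the 12 largest called differences of each sign with the same sign in all captures, up to 3 called genes per list with the lowest adjusted p, all gonadal factors, and the 4 lowest p of each sign in the stage comparisons. A few of these genes are not reported here. Positions are from GENCODE on GRCm38. The members and the gene lists were chosen with earlier results of these data known. Lists were described by counts, with no set test. Alternatives covered the limit, filter, pseudocount, scaling, averaging, trend, block and left-out captures or cells.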

Additional observations from a re-analysis of the deposited data

Results flagged for a closer look

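Among the 80 genes named by the rule, 5 had 1 capture whose difference between members and other cells stood apart from the other 3, by Dixon's criterion of 0.829 for 4 values. Chance flags about 1 in 20 groups, which is close to this number. In 4 of the 5 the second E13.5 capture stood apart, each time with a smaller difference. Dnm3os differed by 3.71 there and by 4.77 to 4.86 in the other captures. Smoc2 differed by 2.997 there against 4.70 to 4.99, and Mmp2 by 2.17 against 3.53 to 3.79. Rhox8, a homeobox gene lower in the members, differed by -1.66 there against -5.51 to -5.11, and its level in the other cells of that capture was 5.71 RPKM against 33.97 to 57.1 RPKM in the other cells of the remaining captures. Epha3 stood apart in the first E13.5 capture, at 2.95 against 2.68 to 2.70, a gap of small size.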

How the results depend on the processing

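Between members and other cells, 2.15% of tested genes were called. That share was 1.80% to 2.37% at a limit of 0.5 or 1.5, and the number of calls stayed within 1.5 times under rescaling, a pseudocount of 5, left-out cells and a filter of 10 RPKM (5.19% of 6127 genes). It was 9.67% with the mean of log2 values over cells, 1.18% with a pseudocount of 0.1, 0.0939% without the intensity trend and 0.0050% (1 gene) with no filter on low values, where 19996 genes were tested. Against supporting-gated cells (1.14%), it was 0.275% at a limit of 0.5, 2.38% at 1.5, 0.665% with a pseudocount of 0.1 and 0.150% with no filter. Against in-between cells (0.253%), it was 0.412% after rescaling, 0.152% and 0.0289% with a pseudocount of 5 and 0.1, 0% with no filter, where 2168 genes had an unadjusted p under 0.05 (limma), and 10.8% at a limit of 0.5, where only 2 captures had at least 3 such cells. The stage interaction gave 0.0163% (1 gene) with a filter of 10 RPKM. Leaving out a capture gave 0.367% to 1.03%, 0.00764% to 0.457%, 0% to 0.0467% and 0% to 0.775% in these 4 comparisons. Without the block that pairs the classes of a capture, the shares were 2.69%, 1.42%, 0.470% and 0.00722%. Of 62 named called genes under 17 settings, 737 of 1049 values stayed called with the same sign, 311 lost the call and 1 reversed: Leprel1 at a limit of 1.5, -0.35 (adjusted p = 0.882, limma). No gene stayed called in all 17, since none did with no filter. The cause was not tested. Values of Lum and of Epha3 rest on 15 members each. What depth limits was not tested.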
